A study of Mus musculus with 16 samples.

Results

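The genes described here carry cells through mitosis: they condense the chromosomes, build the spindle, attach and check the chromosomes, split the sister chromatids and divide the cell. They were taken from a list of 42 genes by name, and a gene was measured where at least 1 probe set of the array carried its symbol and no other. This held for 40 of the 42, out of 12393 genes measured in all. Cyclin B1 (Ccnb1) and separase (Espl1) had no such probe set and are not analysed here.

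The cells were mouse J1 embryonic stem (ES) cells, an established line grown on gelatin in serum with leukemia inhibitory factor and no feeder layer named, and total RNA was hybridised to the Affymetrix Mouse 430A 2.0 array. There were 16 arrays in 5 groups: Tgif1 KD (2 arrays, knockdown of Tgif1) with shControl (2 arrays, labelled as control knockdown), and Tgif1 OE (4 arrays, overexpression of Tgif1) and Tgif2 OE (4 arrays, overexpression of Tgif2) with BirA control (4 arrays, overexpression of BirA, a bacterial biotin ligase). Tgif1 and Tgif2 are homeodomain proteins known as corepressors of transcription in TGF-beta signalling. The hairpin, the promoters of the constructs, the time after their delivery and whether a group was 1 clone are not stated in the sources used here, nor whether replicates were separate cultures, so every p-value measures the spread between arrays, which may be technical.

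The Tgif1 probe set read 7.12 and 7.46 on the Tgif1 KD arrays against 10.66 and 10.71 on the shControl arrays, a ratio of 0.0951. It did not show the overexpression: Tgif1 was lower on the Tgif1 OE arrays than on the BirA control arrays by -0.58 ± 0.072 (SE, adjusted p = 5.52e-05), and Tgif2 on the Tgif2 OE arrays differed from the BirA control by 0.11 ± 0.065 (SE, adjusted p = 0.208). Whether these probe sets can see the constructs is not known here, so "Tgif1 OE" and "Tgif2 OE" below mean the arrays labelled so. The 8 ES cell markers averaged 12.06 to 12.81 per array, with Fgf4 lowest at 10.72 and Dppa5a highest at 14.20 over all arrays, while 13 embryonic fibroblast markers averaged 4.35 to 4.91 and 7 blood cell markers 4.48 to 4.78. The dimmest fibroblast marker was Lum, at 2.96. All levels are log2 intensities as deposited, and the whole table runs from 2.19 to 14.79. In the overexpression arm the arrays grouped as replicates 1 and 2 against replicates 3 and 4, and changes within these pairs are given where they bear on a result. On the Tgif2 OE arrays the median of all genes stood 0.12 above the BirA control, so changes there are also given relative to that median.

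Entry into mitosis is driven by Cdk1 with cyclins A and B, which Cdc25 phosphatases switch on; Polo and Aurora kinases then build the spindle, kinesin motors and microtubule binding proteins shape it, and condensins compact the chromosomes. The spindle checkpoint holds the anaphase-promoting complex until each kinetochore is attached, after which securin (Pttg1) is destroyed and separase cuts cohesin. Most of these genes are transcribed late in the cell cycle, under a shared control known for a pair of short promoter elements: the CCAAT box, bound by NF-Y, and the CHR element (TTTGAA or TTCGAA), bound by the MuvB core that partners with B-Myb and FoxM1 or with p130. ES cells cycle fast and hold these genes at high levels.

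The promoters show how far that shared control is written in the sequence. Of the 40 genes, 33 had a promoter in the RefSeq table (GRCm38.p6), and the 250 bases before the listed start were searched on both strands for the CCAAT box and for the CHR element as TTTGAA or TTCGAA. The latter reads the same on both strands, and matches of different motifs may overlap. CCAAT stood in 26 of 33 (78.8%), against 35.8% of the 9887 measured genes with an entry, and TTTGAA or TTCGAA in 13 (39.4%) against 13.1%. Both kinds stood in 12 promoters (36.4%), against 4.76% of all. These shares are descriptions, and a match is not a bound site. The promoters of Cdk1, the textbook case, and of 4 genes that were called in some comparison and whose windows hold a motif are shown with the motifs in capitals (ATTGG is CCAAT and TTCAAA is TTTGAA read on the other strand). Each runs 5′ to 3′ toward the start on the strand of the gene.
Cdk1 (chr10:69352913-69353162, minus strand): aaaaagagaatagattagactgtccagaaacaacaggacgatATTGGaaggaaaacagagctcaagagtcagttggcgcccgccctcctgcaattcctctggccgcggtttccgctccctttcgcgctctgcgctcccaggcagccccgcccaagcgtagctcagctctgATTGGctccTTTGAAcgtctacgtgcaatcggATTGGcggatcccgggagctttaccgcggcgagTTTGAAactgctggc
Hmmr (chr11:40733438-40733687, minus strand): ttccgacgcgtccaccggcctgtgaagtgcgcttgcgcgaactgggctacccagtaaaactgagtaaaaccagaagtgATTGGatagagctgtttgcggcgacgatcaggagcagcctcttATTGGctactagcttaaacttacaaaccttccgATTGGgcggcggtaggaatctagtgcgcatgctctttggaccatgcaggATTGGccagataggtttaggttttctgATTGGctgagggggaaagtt
Kif11 (chr19:37376132-37376381, plus strand): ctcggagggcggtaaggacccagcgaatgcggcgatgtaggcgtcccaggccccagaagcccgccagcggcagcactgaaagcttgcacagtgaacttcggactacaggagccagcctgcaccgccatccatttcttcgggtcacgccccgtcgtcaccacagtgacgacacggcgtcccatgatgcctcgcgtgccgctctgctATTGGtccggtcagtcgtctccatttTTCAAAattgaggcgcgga
Ncapd2 (chr6:125191587-125191836, minus strand): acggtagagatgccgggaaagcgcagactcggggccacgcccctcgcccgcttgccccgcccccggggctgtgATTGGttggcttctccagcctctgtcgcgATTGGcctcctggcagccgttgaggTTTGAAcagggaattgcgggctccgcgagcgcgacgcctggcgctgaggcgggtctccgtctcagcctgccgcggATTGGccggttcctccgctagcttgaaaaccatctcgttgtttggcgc
Kif23 (chr9:61946800-61947049, minus strand): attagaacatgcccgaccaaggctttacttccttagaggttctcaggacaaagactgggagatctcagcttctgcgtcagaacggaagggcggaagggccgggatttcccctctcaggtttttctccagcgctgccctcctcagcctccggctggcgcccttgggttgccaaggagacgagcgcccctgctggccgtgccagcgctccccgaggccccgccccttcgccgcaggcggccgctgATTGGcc
Cdk1 carries 3 CCAAT and 2 TTTGAA, the nearer of which begins 15 bases before the start. Hmmr carries 5 CCAAT, 20 to 172 bases before the start, and neither CHR form. Kif11 has 1 of each, Ncapd2 has 3 CCAAT and 1 TTTGAA, and Kif23 has a single CCAAT 7 bases before the start. The windows of Nusap1 and Pttg1, both among the genes with the largest changes below, hold none of the 3 motifs.

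All 40 genes ranked near or above the middle of all genes by mean level. Their mean levels ran from the 49.0th percentile of all genes (Cdc25b) to the 98.2nd (Ube2c), and their average per array lay between 10.53 and 10.70. The groups' averages were 10.67 on Tgif1 KD, 10.69 on shControl, 10.65 on BirA control, 10.56 on Tgif1 OE and 10.59 on Tgif2 OE. In these bulk samples, fewer cells in mitosis and less RNA per cell cannot be told apart.

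**Figure D1:**
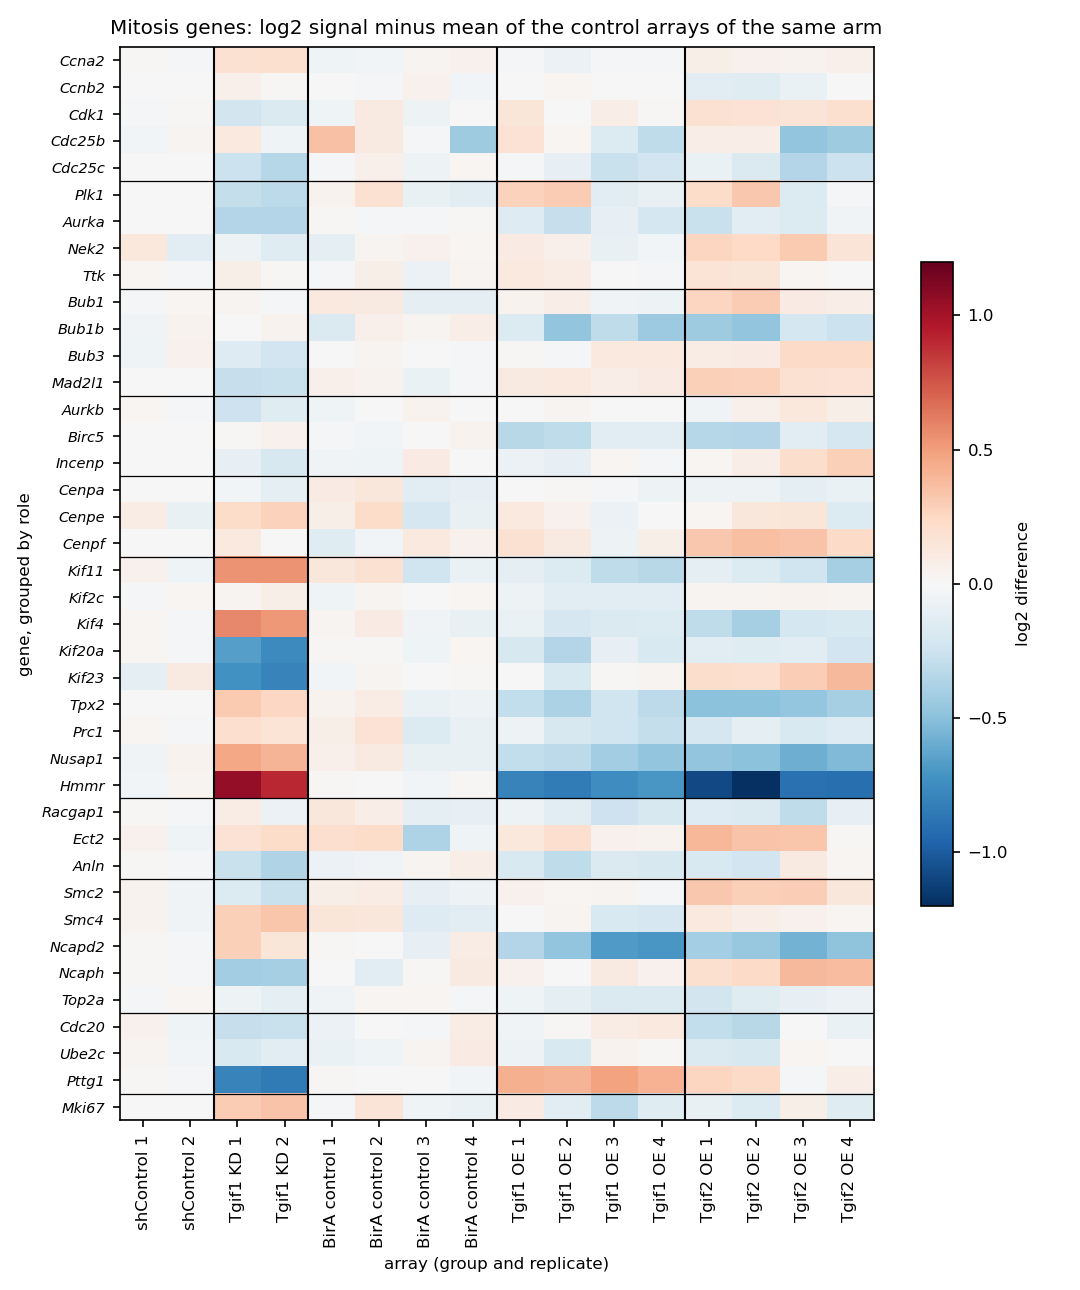
Log2 signal of the 40 genes (rows, ordered by role with lines between roles) on the 16 arrays (columns), each minus the mean of the control arrays of its arm: shControl for the first 4 columns, BirA control for the other 12. Hmmr turns from red on Tgif1 KD to blue on both overexpression groups, Pttg1 goes the other way on Tgif1 KD and Tgif1 OE, and rows such as Bub1 and Cenpa stay pale on the knockdown arrays.

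The first comparison asks what loss of Tgif1 did to these genes. On the Tgif1 KD arrays 6 genes rose and 8 fell, 14 of 40 (35%). Of all genes 25.4% were called there, and of the 6322 genes at least as bright as the dimmest of the 40, 35.6% were called, so the share was close to that of other genes at these levels. The rise was led by proteins that bind or move along spindle microtubules (Hmmr, Kif4, Kif11, Nusap1, Tpx2), and the fall by securin (Pttg1) and the motors of the central spindle (Kif23, Kif20a). The median change over the 40 was 0.0097 on the log2 scale, against -0.045 over all genes. A gene is called here at an adjusted p under 0.05 in limma, two-sided, with Benjamini-Hochberg adjustment over all 12393 genes.

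The spindle motors and microtubule proteins changed most, with 5 of 9 higher and 2 of 9 lower. Hmmr, a microtubule binding protein of the spindle poles, read 11.58 and 11.43 on the Tgif1 KD arrays and 10.49 and 10.56 on the shControl arrays, so both Tgif1 KD arrays stood far above both controls. Its change was 0.98 ± 0.11 (SE, adjusted p = 1.19e-05), or 1.97-fold. The other 3 probe sets of Hmmr gave 1.00, 1.16 and 1.24. Kif4, a chromokinesin that helps shape mitotic chromosomes, read 8.75 and 8.69 on the Tgif1 KD arrays and 8.20 and 8.15 on the shControl arrays and rose by 0.55 ± 0.086 (SE, adjusted p = 0.000257). Kif11 is the motor that pushes spindle poles apart. It read 10.47 and 10.48 on the Tgif1 KD arrays and 9.99 and 9.88 on the shControl arrays, a change of 0.54 ± 0.13 (SE, adjusted p = 0.0067), and 0.30 and 0.39 by its other probe sets. Without shControl replicate 2 its call was lost (adjusted p = 0.0631). Nusap1, which bundles spindle microtubules, read 11.36 and 11.30 on the Tgif1 KD arrays and 10.85 and 10.94 on the shControl arrays. It rose by 0.43 ± 0.089 (SE, adjusted p = 0.00207), while its second probe set, dim at 4.64, gave 0.0049, and with the mean of both the adjusted p was 0.0686. Tpx2, the activator of Aurora A on the spindle, read 10.22 and 10.15 on the Tgif1 KD arrays and 9.92 and 9.90 on the shControl arrays. Its change was 0.28 ± 0.077 (SE, adjusted p = 0.0138), with 0.018 by its second probe set, and the call was lost without Tgif1 KD replicate 1, shControl replicate 1 or shControl replicate 2, with adjusted p-values from 0.0601 to 0.105, and with the mean of both probe sets (0.19). For each of these 5 genes the groups did not overlap.

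Kif23 and Kif20a, kinesins that work at the central spindle and midbody during cell division, went down. Kif23 read 9.35 and 9.27 on the Tgif1 KD arrays and 9.96 and 10.18 on the shControl arrays, a change of -0.76 ± 0.095 (SE, adjusted p = 3.35e-05), with -0.69 and -0.26 by its other probe sets. Kif20a read 10.34 and 10.24 on the Tgif1 KD arrays and 11.03 and 10.98 on the shControl arrays and changed by -0.71 ± 0.082 (SE, adjusted p = 1.6e-05). Anln, an actin binding protein of the cleavage furrow, changed by -0.32 ± 0.10 (SE, adjusted p = 0.0363), and its call was lost on leaving out any 1 of the 4 arrays. The other cytokinesis genes were not called: Racgap1, the partner of Kif23, changed by 0.012 ± 0.10 and Ect2, the exchange factor that activates RhoA, by 0.20 ± 0.16. Prc1, which bundles antiparallel microtubules at the spindle midzone, changed by 0.19 ± 0.10, and Kif2c, a microtubule depolymerase, by 0.053 ± 0.062, both without a call.

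Securin, the inhibitor of separase, had the largest fall. Pttg1 read 12.11 and 12.07 on the Tgif1 KD arrays and 12.92 and 12.90 on the shControl arrays, and the change was -0.82 ± 0.084 (SE, adjusted p = 5.2e-06), or 0.565 of the control. Its 2 other probe sets gave -1.07 and, at a dim 5.45, -0.31. The probe set used is of a kind whose probes can match several transcripts, so its level may include relatives. Ube2c, the ubiquitin-conjugating enzyme of the anaphase-promoting complex, read 12.44 and 12.499 on the Tgif1 KD arrays and 12.66 and 12.59 on the shControl arrays. Neither it (-0.16 ± 0.098) nor Cdc20, the activator of that complex (-0.28 ± 0.11, adjusted p = 0.0694), was called.

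Among the condensin genes, Ncaph, the bridging subunit of condensin I, read 10.09 and 10.11 on the Tgif1 KD arrays and 10.51 and 10.49 on the shControl arrays and changed by -0.40 ± 0.087 (SE, adjusted p = 0.00289). The Ncaph probe set used is of a kind in which some probes can match other transcripts. A second Ncaph probe set, at 8.88 over all arrays, is not given separately, but the call held with the mean of both. Smc4 and Smc2, the ATPases shared by both condensins, changed by 0.31 ± 0.11 (SE, adjusted p = 0.0544) and -0.22 ± 0.085 (SE, adjusted p = 0.0763). Ncapd2, another condensin I subunit, read 10.84 and 10.70 on the Tgif1 KD arrays and 10.57 and 10.54 on the shControl arrays, a change of 0.21 ± 0.11 that was not called. Top2a, the topoisomerase that untangles sister chromatids, read 12.60 and 12.54 on the Tgif1 KD arrays and 12.64 and 12.68 on the shControl arrays, a change of -0.089 ± 0.073. Mki67, the protein that coats mitotic chromosomes, read 11.02 and 11.05 on the Tgif1 KD arrays and 10.71 and 10.72 on the shControl arrays, and its change of 0.32 ± 0.12 (SE, adjusted p = 0.0562) missed the threshold although the arrays did not overlap.

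The core mitotic kinases and their regulators moved less. Cdk1 read 11.40 and 11.45 on the Tgif1 KD arrays and 11.61 and 11.63 on the shControl arrays, a change of -0.20 ± 0.074 (SE, adjusted p = 0.0623) that was not called. Ccna2, which encodes cyclin A2, changed by 0.19 ± 0.064 (SE, adjusted p = 0.0428), and Ccnb2, cyclin B2, by 0.036 ± 0.068. Cdc25c, a phosphatase that activates Cdk1, changed by -0.30 ± 0.098 (SE, adjusted p = 0.0339), and its relative Cdc25b, the dimmest of the 40, by 0.031 ± 0.23. The Ccna2 and Cdc25c calls were lost on leaving out any 1 of the 4 arrays, with adjusted p-values up to 0.191 and 0.176. Aurka, Aurora A kinase of the spindle poles, read 10.34 and 10.34 on the Tgif1 KD arrays and 10.70 and 10.68 on the shControl arrays. It changed by -0.35 ± 0.079 (SE, adjusted p = 0.00385) and kept its call in every alternative tried. Plk1, Polo-like kinase 1, read 10.20 and 10.17 on the Tgif1 KD arrays and 10.48 and 10.49 on the shControl arrays, a change of -0.30 ± 0.17 (SE, adjusted p = 0.221) that was not called. Nek2, a centrosome kinase, and Ttk, the Mps1 kinase of the checkpoint, changed by -0.10 ± 0.097 and 0.04 ± 0.082, neither called.

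At the kinetochore, Mad2l1, the checkpoint protein that binds Cdc20, was called lower (-0.27 ± 0.07 SE, adjusted p = 0.0105), but on leaving out any 1 of the 4 arrays the call was lost, with adjusted p-values up to 0.0637. Bub1, the checkpoint kinase, read 11.61 and 11.56 on the Tgif1 KD arrays and 11.56 and 11.61 on the shControl arrays; the groups overlapped and the change was 0.0077 ± 0.10. Bub1b, or BubR1, changed by 0.016 ± 0.12 and Bub3 by -0.19 ± 0.079. Cenpa, the histone variant that marks centromeres, read 11.40 and 11.33 on the Tgif1 KD arrays and 11.43 and 11.44 on the shControl arrays, a change of -0.07 ± 0.087. The kinesin Cenpe and the kinetochore protein Cenpf changed by 0.25 ± 0.13 and 0.06 ± 0.096. Of the chromosomal passenger complex, Aurkb, its kinase, read 9.14 and 9.24 on the Tgif1 KD arrays and 9.41 and 9.36 on the shControl arrays, a change of -0.20 ± 0.071 (SE, adjusted p = 0.0559). Birc5 (survivin) and the scaffold Incenp changed by 0.033 ± 0.09 and -0.14 ± 0.09. None of these was called except Mad2l1.

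With 2 arrays a group, 33 of the 40 genes showed no overlap between Tgif1 KD and shControl, as did 69.2% of all genes. The count of called genes fell on leaving out any single array of these groups, which leaves 1 array in a group. The share of all genes called fell in the same fits. Aurka, Hmmr, Kif4, Kif20a, Kif23, Ncaph and Pttg1 were called under each alternative. Signs of RNA quality moved with the groups: the 5′ minus 3′ signal of the Gapdh controls was -0.088 ± 0.011 (SD, n = 2) on Tgif1 KD and -0.21 ± 0.0088 (SD, n = 2) on shControl, and that of Actb -0.51 and -0.64. In the knockdown 12.5% of all genes were called higher and 12.9% lower, the shares to set beside the marker counts that follow. Of the 8 ES cell markers 2 rose, Fgf4 and Tdgf1, with a list average of 12.79 on Tgif1 KD and 12.50 on shControl. The 13 fibroblast markers averaged 4.64 and 4.70, with Thy1 lower (-1.33 ± 0.15) and Pdgfra (0.60 ± 0.12) and Twist1 (0.61 ± 0.21) higher. Of the 7 blood cell markers 1 was called, Gata1, which was lower (-0.49 ± 0.12). The part of these in the result was not tested. By call, and counting genes with a promoter entry, CCAAT stood in 3 of 4 risers, 2 of 6 fallers and 21 of 23 genes not called.

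**Figure D2:**
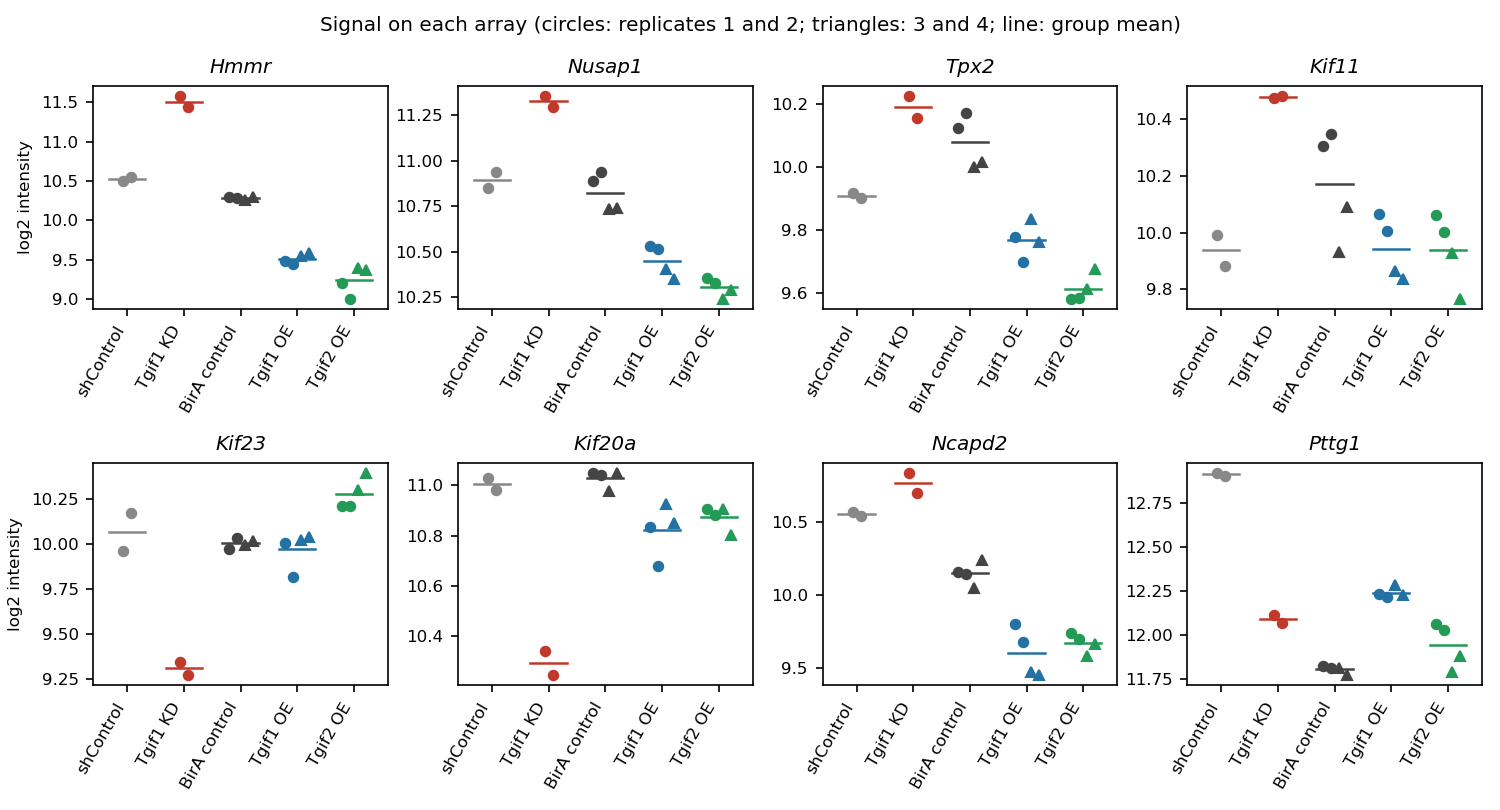
Log2 intensity on each array for 8 genes, with 1 panel per gene and its own vertical scale; circles are replicates 1 and 2, triangles replicates 3 and 4, and lines the group means. Hmmr, Nusap1 and Tpx2 stand highest on Tgif1 KD and lowest on Tgif2 OE, while Pttg1 stands highest on shControl, near 12.9.

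The second comparison asks what the Tgif1 overexpression construct did. On the Tgif1 OE arrays 8 of the 40 genes fell and 1 rose, 22.5% in all, against 20.9% of all genes called, 11.4% higher and 9.51% lower, and 27.9% of those at least as bright as the dimmest of the 40. The fallers were Hmmr, Ncapd2, Nusap1, Bub1b, Tpx2, Birc5, Kif20a and Aurka, and Pttg1 rose. The median over the 40 was -0.044, against 0.015 over all genes. All 9 spindle motors and microtubule proteins lay below 0, from -0.034 (Kif23) to -0.77 (Hmmr), and 4 of them were called.

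Hmmr read 10.30, 10.28, 10.25 and 10.30 on the BirA control arrays, 9.48, 9.44, 9.54 and 9.59 on the Tgif1 OE arrays and 9.20, 9.01, 9.39 and 9.38 on the Tgif2 OE arrays. Each Tgif1 OE array lay below each control array, and the change was -0.77 ± 0.077 (SE, adjusted p = 7.68e-06), with -0.83 in replicates 1 and 2 and -0.71 in replicates 3 and 4. Its other probe sets gave -0.87, -0.88 and -1.05. Nusap1 read 10.89, 10.94, 10.73 and 10.74 on the BirA control arrays, 10.53, 10.51, 10.40 and 10.35 on the Tgif1 OE arrays and 10.36, 10.33, 10.24 and 10.29 on the Tgif2 OE arrays. The change was -0.38 ± 0.063 (SE, adjusted p = 0.000572), again without overlap, and 0.044 by the dim second probe set. Tpx2 read 10.12, 10.17, 9.9999 and 10.02 on the BirA control arrays, 9.78, 9.70, 9.84 and 9.76 on the Tgif1 OE arrays and 9.58, 9.59, 9.61 and 9.68 on the Tgif2 OE arrays. It changed by -0.31 ± 0.054 (SE, adjusted p = 0.000838), its second probe set gave -0.33, and it was -0.41 in replicates 1 and 2 and -0.21 in replicates 3 and 4.

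Ncapd2 had the second largest fall. It read 10.16, 10.15, 10.05 and 10.24 on the BirA control arrays, 9.80, 9.68, 9.47 and 9.45 on the Tgif1 OE arrays and 9.74, 9.70, 9.58 and 9.67 on the Tgif2 OE arrays, a change of -0.55 ± 0.077 (SE, adjusted p = 0.000138), with -0.42 in replicates 1 and 2 and -0.68 in replicates 3 and 4. Of the other condensin genes Ncaph changed by 0.055 ± 0.061, Smc2 by 0.024 ± 0.06 and Smc4 by -0.091 ± 0.078, none called. Bub1b read 10.60, 10.82, 10.80 and 10.84 on the BirA control arrays, 10.60, 10.29, 10.46 and 10.33 on the Tgif1 OE arrays and 10.33, 10.30, 10.55 and 10.51 on the Tgif2 OE arrays. Its change was -0.34 ± 0.082 (SE, adjusted p = 0.00726), but BirA control replicate 1 lay as low as the highest Tgif1 OE array, so the groups overlapped. The other checkpoint genes Bub1 (0.0076 ± 0.072), Bub3 (0.057 ± 0.056) and Mad2l1 (0.098 ± 0.05) were not called. Bub1 read 11.57, 11.56, 11.34 and 11.34 on the BirA control arrays, 11.5002, 11.54, 11.41 and 11.40 on the Tgif1 OE arrays and 11.71, 11.76, 11.56 and 11.53 on the Tgif2 OE arrays, with replicates 1 and 2 above replicates 3 and 4 in each group.

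Birc5 read 11.39, 11.38, 11.42 and 11.45 on the BirA control arrays, 11.08, 11.10, 11.27 and 11.27 on the Tgif1 OE arrays and 11.06, 11.05, 11.27 and 11.21 on the Tgif2 OE arrays, a change of -0.23 ± 0.064 (SE, adjusted p = 0.0197) that was lost without Tgif1 OE replicate 1 or 2. Kif20a read 11.05, 11.04, 10.98 and 11.05 on the BirA control arrays, 10.84, 10.68, 10.93 and 10.85 on the Tgif1 OE arrays and 10.91, 10.88, 10.91 and 10.80 on the Tgif2 OE arrays and changed by -0.21 ± 0.058 (SE, adjusted p = 0.0184), lost without Tgif1 OE replicate 2. Aurka read 10.86, 10.83, 10.83 and 10.86 on the BirA control arrays, 10.69, 10.57, 10.74 and 10.64 on the Tgif1 OE arrays and 10.58, 10.71, 10.68 and 10.80 on the Tgif2 OE arrays. Its change was -0.19 ± 0.056 (SE, adjusted p = 0.0268), lost without Tgif1 OE replicate 2 or 4 or BirA control replicate 1 or 4. With the pair of arrays as a random block these 3 and Bub1b were not called, with adjusted p-values of 0.0968 for Birc5, 0.192 for Kif20a, 0.247 for Aurka and 0.12 for Bub1b. That fit called 5 of the 40 genes and 9.61% of all genes. Its blocks were pairs within a group, so a difference between pairs that the groups shared was not removed and stayed in its error. Averaging each pair left 3 called, Hmmr, Ncapd2 and Pttg1, beside 6.47% of all genes.

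Pttg1 was the gene that rose. It read 11.82, 11.81, 11.81 and 11.77 on the BirA control arrays, 12.23, 12.21, 12.29 and 12.23 on the Tgif1 OE arrays and 12.06, 12.03, 11.79 and 11.88 on the Tgif2 OE arrays, so the Tgif1 OE arrays stood above all others of their arm, by 0.43 ± 0.059 (SE, adjusted p = 0.000108) over the BirA control. Its second bright probe set gave 0.38.

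Kif11 and Kif4, called higher in the knockdown, were not called here. Kif11 read 10.31, 10.35, 9.93 and 10.09 on the BirA control arrays, 10.07, 10.01, 9.87 and 9.84 on the Tgif1 OE arrays and 10.06, 10.002, 9.93 and 9.77 on the Tgif2 OE arrays, with replicates 1 and 2 above 3 and 4 within the BirA control, and the groups overlapped (-0.23 ± 0.093 SE, adjusted p = 0.104). Between arrays of the same number, which were not shown to pair singly, the difference was below 0 in all 4, at -0.24, -0.34, -0.067 and -0.26 in order of number. With the replicate number as a block the Kif11 change was called (adjusted p = 0.0164). Its other probe sets were called, at -0.30 (adjusted p over probe sets = 0.00326) and -0.52 (0.00771). Kif4 read 8.43, 8.49, 8.35 and 8.30 on the BirA control arrays, 8.31, 8.19, 8.22 and 8.23 on the Tgif1 OE arrays and 8.08, 7.997, 8.18 and 8.21 on the Tgif2 OE arrays, a change of -0.15 ± 0.061 (SE, adjusted p = 0.0903). Kif23 read 9.97, 10.04, 9.997 and 10.02 on the BirA control arrays, 10.01, 9.82, 10.02 and 10.04 on the Tgif1 OE arrays and 10.21, 10.21, 10.30 and 10.40 on the Tgif2 OE arrays. Its change was -0.034 ± 0.067 by the probe set used and -0.43 by another at 7.57 (adjusted p over probe sets = 0.025), so its probe sets disagreed.

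Of the core mitotic genes picked by role, Aurka was the one called on Tgif1 OE. Cdk1 read 11.40, 11.55, 11.39 and 11.45 on the BirA control arrays, 11.59, 11.44, 11.53 and 11.46 on the Tgif1 OE arrays and 11.63, 11.62, 11.60 and 11.64 on the Tgif2 OE arrays, and the groups overlapped. Plk1, the Polo kinase, read 10.40, 10.54, 10.27 and 10.23 on the BirA control arrays, 10.64, 10.66, 10.23 and 10.27 on the Tgif1 OE arrays and 10.58, 10.68, 10.19 and 10.34 on the Tgif2 OE arrays, with replicates 1 and 2 above replicates 3 and 4 in each group. Aurkb read 9.34, 9.39, 9.43 and 9.39 on the BirA control arrays, 9.39, 9.42, 9.38 and 9.39 on the Tgif1 OE arrays and 9.35, 9.45, 9.51 and 9.45 on the Tgif2 OE arrays, within a narrow range throughout. Cenpa, the centromeric histone, read 11.62, 11.66, 11.39 and 11.43 on the BirA control arrays, 11.52, 11.54, 11.503 and 11.46 on the Tgif1 OE arrays and 11.46, 11.46, 11.42 and 11.45 on the Tgif2 OE arrays, where the control arrays alone span more than the treated ones. Top2a read 12.64, 12.71, 12.70 and 12.67 on the BirA control arrays, 12.63, 12.57, 12.504 and 12.505 on the Tgif1 OE arrays and 12.46, 12.54, 12.58 and 12.61 on the Tgif2 OE arrays. Its Tgif1 OE arrays lay below all controls, with a change of -0.13 ± 0.052 (SE, adjusted p = 0.0983) that was not called. Ube2c read 12.66, 12.69, 12.77 and 12.83 on the BirA control arrays, 12.68, 12.55, 12.78 and 12.75 on the Tgif1 OE arrays and 12.56, 12.55, 12.76 and 12.74 on the Tgif2 OE arrays. Mki67 read 10.80, 10.97, 10.77 and 10.74 on the BirA control arrays, 10.91, 10.70, 10.503 and 10.68 on the Tgif1 OE arrays and 10.72, 10.65, 10.89 and 10.67 on the Tgif2 OE arrays, and in both genes the groups overlapped. The remaining genes, Anln, Prc1, Racgap1, Cdc25c, Kif2c, Cdc25b, Incenp, Ccna2, Ccnb2, Nek2, Cenpe, Cdc20, Ttk, Cenpf and Ect2, ranged from -0.21 (Anln, adjusted p = 0.0544) to 0.11 (Ect2), none of them called. The replicate block added 3 calls, all lower, Kif11, Prc1 (-0.19, adjusted p = 0.0367 in that fit) and Anln (-0.21, adjusted p = 0.0163), so that 12 of the 40 and 28.6% of all genes were called.

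Between Tgif1 OE and BirA control 12 of the 40 genes showed no overlap, 30%, against 23.1% of all genes. Some markers of other cells moved with this comparison: 5 of 13 fibroblast markers were higher on Tgif1 OE (Acta2, Col1a2, Col3a1, Dcn and S100a4). Of all genes 11.4% were called higher and 9.51% lower. All of these 5 but Acta2 were dim, with means of 4.23 to 5.57 on Tgif1 OE. Lum, Pdgfra and Twist1 had slightly lower means on Tgif1 OE than on BirA control. The list averaged 4.41 on BirA control (4.35 to 4.5 by array) and 4.74 on Tgif1 OE (4.57 to 4.91). Of the ES cell markers 5 of 8 were lower, among them Nanog at -0.69 ± 0.17, and their average was 12.39 on BirA control and 12.15 on Tgif1 OE. The 5′ minus 3′ signal of Gapdh was -0.24 and -0.34 on Tgif1 OE replicates 1 and 2 against -0.11 and -0.13 on the same BirA control replicates, and -0.025 and -0.084 on replicates 3 and 4 against -0.054 and -0.039. The part of these in the result was not tested.

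The knockdown and Tgif1 OE share no arrays, so the test of their difference is the direct one. The changes differed for 16 of the 40 genes (40%), against 27.6% of all genes and 37.1% of those at least as bright as the dimmest of the 40. In 10 the knockdown change was the higher one and in 6 the lower. Of the 9 spindle motors and microtubule proteins 8 differed, 6 with the knockdown higher. The largest differences were in Hmmr (1.75 ± 0.13 SE, adjusted p = 3.42e-07) and, the other way, Pttg1 (-1.26 ± 0.10 SE, adjusted p = 5.67e-07). The Pttg1 means were 12.91 on shControl and 11.80 on BirA control, but 12.09 on Tgif1 KD and 12.24 on Tgif1 OE. Most of its difference therefore lies in the levels of the control groups.

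After Hmmr came Nusap1 (0.81 ± 0.11 SE, adjusted p = 5.76e-05), Kif11 (0.77 ± 0.16 SE, adjusted p = 0.00226), Ncapd2 (0.76 ± 0.13 SE, adjusted p = 0.000549), Kif4 (0.70 ± 0.11 SE, adjusted p = 0.000153) and Tpx2 (0.59 ± 0.094 SE, adjusted p = 0.000251), all with the knockdown change above the overexpression change. Smaller differences of that direction were called for Mki67 (0.44), Smc4 (0.40), Prc1 (0.38) and Ccna2 (0.22). After Pttg1, the knockdown change lay below the overexpression change for Kif23 (-0.73 ± 0.12 SE, adjusted p = 0.000255), Kif20a (-0.50 ± 0.10 SE, adjusted p = 0.00146), Ncaph (-0.46 ± 0.11 SE, adjusted p = 0.00457), Mad2l1 (-0.37) and Cdk1 (-0.26). The differences for Ccna2, Cdk1, Prc1, Smc4 and Mki67 were each lost on leaving out several single arrays, Ccna2 in 11 of 12 such fits. The other 11 were called with any 1 array left out. By other probe sets Hmmr gave differences of 1.87 to 2.29, Kif11 0.60 and 0.90, and Pttg1 -1.45 and -0.38. Kif23 gave -0.26 (adjusted p over probe sets = 0.421) and -0.24, so its difference was called by the probe set used alone. The 10 called in every alternative were Hmmr, Kif4, Kif11, Kif20a, Kif23, Ncapd2, Ncaph, Nusap1, Pttg1 and Tpx2.

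Of the 40, 25 had changes of opposite sign in the knockdown and on Tgif1 OE (62.5%), against 55.1% of all genes. Only 6 were called in both: Hmmr, Nusap1, Tpx2 and Pttg1 in opposite directions, and Kif20a and Aurka lower in both. For Pttg1 the levels of the control groups lay further apart than either change. Of all genes 1076 were called in both, 728 of them in opposite directions and 348 in the same.

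**Figure D3:**
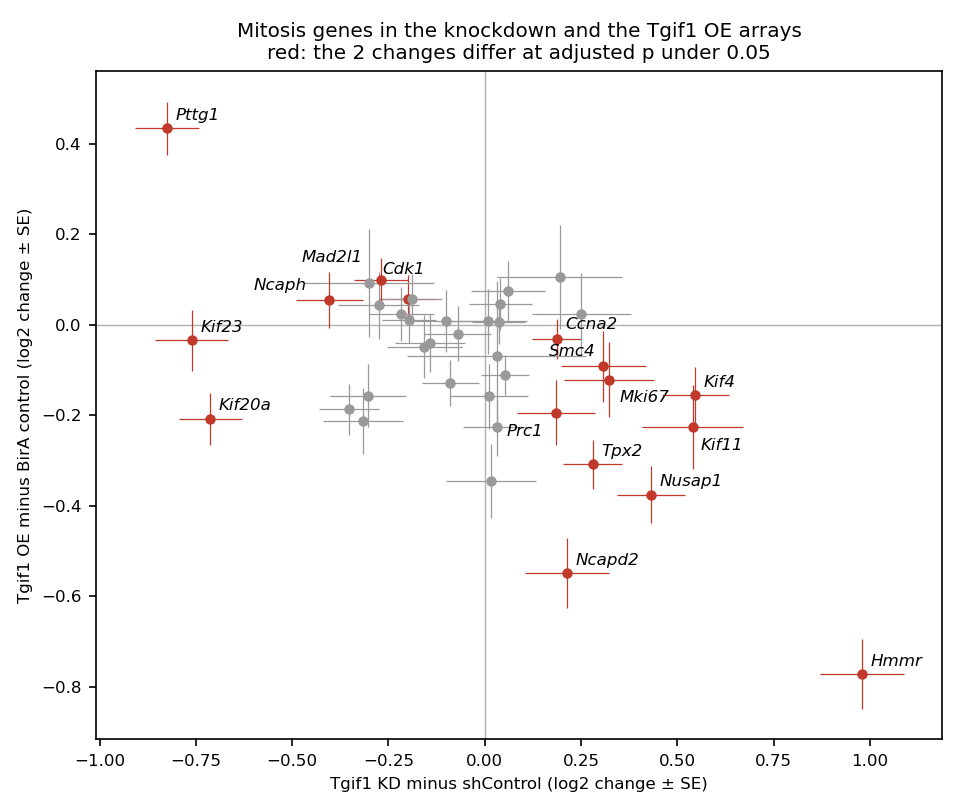
Log2 change on Tgif1 KD against shControl (horizontal) and on Tgif1 OE against BirA control (vertical) for the 40 genes, with bars of 1 SE; red names mark the 16 genes whose changes differed at adjusted p under 0.05. Hmmr lies far to the lower right, at 0.98 and -0.77, Pttg1 to the upper left, at -0.82 and 0.43, and Kif20a lies lower on both axes. The control groups of both arms differed in Pttg1 by more than either of its changes.

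The next comparison sets Tgif2 OE against the same BirA control arrays, so its values stand beside those of Tgif1 OE without independent controls. On the values as deposited 8 genes were higher and 10 lower, 45%, against 35.4% of all genes called, 28.7% higher and 6.69% lower. Of the 6322 genes at least as bright as the dimmest of the 40, 41.1% were called. After quantile normalization of all arrays the split was 1 higher and 18 lower, beside 27.2% of all genes, 1613 higher and 1753 lower. The 10 genes lower on the deposited values were lower after it too, and of the 8 higher ones only Ncaph was still called (0.17, adjusted p = 0.0497). The median over the 40 was -0.074, which is -0.19 relative to the median of all genes.

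The largest falls were in Hmmr, Nusap1, Ncapd2 and Tpx2. Hmmr changed on Tgif2 OE by -1.04 ± 0.077 (SE, adjusted p = 5.13e-07), or -1.16 relative to the median of all genes, with -1.19 in replicates 1 and 2 and -0.89 in replicates 3 and 4. Its other probe sets gave -0.92, -1.04 and -1.14. Nusap1 changed by -0.52 ± 0.063 (SE, adjusted p = 2.54e-05), or -0.64 relative to the median. Tpx2 changed by -0.46 ± 0.054 (SE, adjusted p = 1.97e-05), or -0.58, with -0.60 by its second probe set, and Ncapd2 by -0.48 ± 0.077 (SE, adjusted p = 0.000269), or -0.60. For these 4 genes each Tgif2 OE array lay below each BirA control array, and the calls held in every alternative.

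Smaller falls were called for Bub1b (-0.34 ± 0.082 SE, adjusted p = 0.00496), Kif4 (-0.27 ± 0.061 SE, adjusted p = 0.00301), Birc5 (-0.26 ± 0.064 SE, adjusted p = 0.00563) and Cdc25c (-0.22 ± 0.07 SE, adjusted p = 0.0256), and for Kif20a (-0.16) and Aurka (-0.15). The calls of Kif20a and Aurka were each lost on leaving out 7 of the 8 arrays singly, and that of Cdc25c on leaving out BirA control replicate 2 or 4 or Tgif2 OE replicate 3 or 4. Quantile normalization added Cenpa, Kif11, Racgap1, Cdc20, Prc1, Top2a, Ccnb2 and Ube2c to the lower genes, from -0.35 (Kif11) to -0.21 (Ube2c). With the replicate number as a block 24 of the 40 and 44.8% of all genes were called. The block added Bub1, Incenp and Ect2 among the higher genes and Kif11, Racgap1 and Cdc20 among the lower ones, with adjusted p-values in that fit from 0.00714 (Bub1) to 0.0361 (Ect2). Kif11 was lower by its other probe sets also on the deposited values, at -0.46 and -0.52.

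The genes higher on the deposited values were Cenpf (0.32 ± 0.068 SE, adjusted p = 0.00234), Ncaph (0.30 ± 0.061 SE, adjusted p = 0.00181), Kif23 (0.27 ± 0.067 SE, adjusted p = 0.00548), Smc2 (0.26 ± 0.06 SE, adjusted p = 0.00378), Nek2, Mad2l1, Cdk1 and Bub3, the last 4 by 0.24, 0.23, 0.18 and 0.16. Relative to the median of all genes these were smaller, from 0.20 for Cenpf to 0.04 for Bub3. Cenpf, a kinetochore and nuclear matrix protein, read 10.56, 10.68, 10.82 and 10.76 on the BirA control arrays, 10.89, 10.82, 10.64 and 10.77 on the Tgif1 OE arrays and 11.03, 11.07, 11.05 and 10.94 on the Tgif2 OE arrays. Ncaph, the condensin I bridge, read 10.27, 10.14, 10.29 and 10.38 on the BirA control arrays, 10.32, 10.27, 10.37 and 10.32 on the Tgif1 OE arrays and 10.46, 10.501, 10.66 and 10.64 on the Tgif2 OE arrays. In both, each Tgif2 OE array lay above each control array. The Bub3 call was lost without any 1 of 6 of the 8 arrays. Pttg1, called higher on Tgif1 OE, changed by 0.14 ± 0.059 on Tgif2 OE, which is 0.017 relative to the median.

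With each pair of arrays as a random block, 9 of the 40 genes were called, 3 higher and 6 lower, beside 16.8% of all genes. With pairs averaged 5 were called, all lower, which is 12.5% beside 13.7% of all genes. Between Tgif2 OE and BirA control 20 of the 40 genes did not overlap (50%), against 32.6% of all genes. Of the 13 fibroblast markers 4 were higher on Tgif2 OE, where 28.7% of all genes were called higher. The list average was 4.67 (4.54 to 4.83 by array) against 4.41 (4.35 to 4.5), beside a median change of 0.12 over all genes. The part of these markers in the result was not tested. The changes in replicates 1 and 2 and in replicates 3 and 4 differed at the adjusted threshold in limma for 0 of the 40 genes on either overexpression group, beside 3.24% of all genes on Tgif1 OE and 5.03% on Tgif2 OE. At an unadjusted p under 0.05 they differed for 5 genes on Tgif1 OE and 10 on Tgif2 OE. The share of all genes at that threshold was not counted, so these counts have no background beside them.

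**Figure D4:**
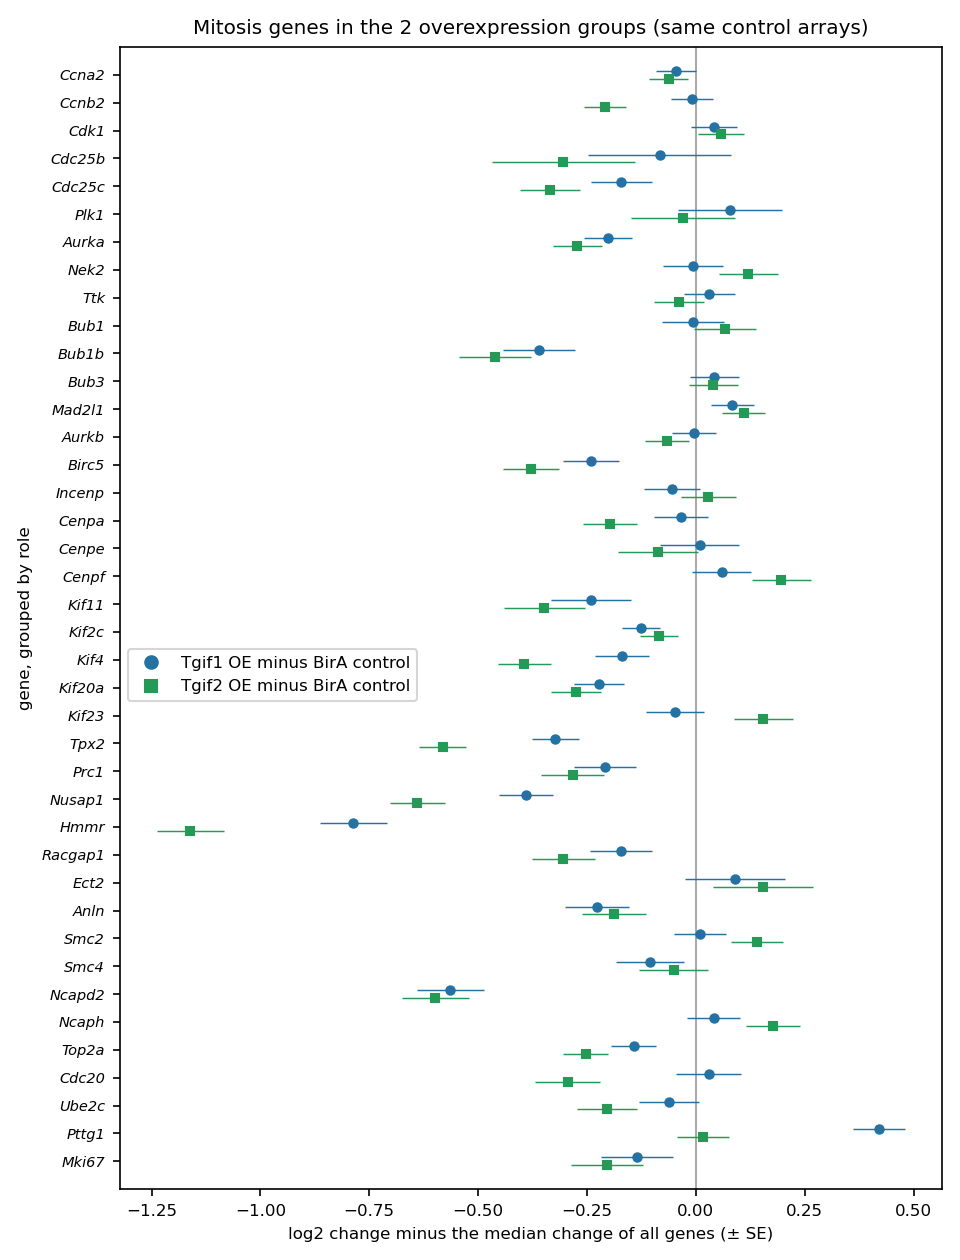
Log2 change of each gene on Tgif1 OE (circles) and Tgif2 OE (squares) against the same 4 BirA control arrays, minus the median change of all genes in that comparison, with bars of 1 SE, ordered by role. Hmmr is farthest left for both, at -0.79 and -1.16, and Pttg1 stands apart at 0.42 on Tgif1 OE, beside 0.017 on Tgif2 OE.

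Tgif1 OE and Tgif2 OE were then compared directly. On the deposited values 2 of the 40 genes were higher on Tgif1 OE and 6 lower, 20%, against 19.7% of all genes, 2.25% higher and 17.4% lower, and 23.8% of those at least as bright as the dimmest of the 40. The split depended on scaling: after quantile normalization 7 were called, all of them higher, beside 9.97% of all genes, 616 higher and 620 lower. Pttg1 (0.30 ± 0.059 SE, adjusted p = 0.00349) and Hmmr (0.27 ± 0.077 SE, adjusted p = 0.0251) were higher on Tgif1 OE under both scalings, at 0.46 and 0.40 after normalization. By other probe sets Hmmr differed by 0.048 to 0.17 and Pttg1 by 0.18 and -0.16, none called. The median of all genes in this comparison was -0.10.

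The 6 lower genes were Kif23 (-0.31 ± 0.067 SE, adjusted p = 0.00612), Ncaph (-0.24 ± 0.061 SE, adjusted p = 0.0146), Cenpf (-0.24 ± 0.068 SE, adjusted p = 0.0233), Smc2 (-0.24 ± 0.06 SE, adjusted p = 0.0144), Nek2 (-0.23 ± 0.069 SE, adjusted p = 0.0295) and Kif2c (-0.15 ± 0.044 SE, adjusted p = 0.0318). After normalization they ranged from -0.17 (Kif23) to -0.0083 (Kif2c), none called. Smc2 read 11.40, 11.42, 11.24 and 11.28 on the BirA control arrays, 11.39, 11.36, 11.37 and 11.32 on the Tgif1 OE arrays and 11.66, 11.62, 11.63 and 11.47 on the Tgif2 OE arrays. Nek2 read 8.86, 9.01, 9.03 and 9.01 on the BirA control arrays, 9.08, 9.04, 8.89 and 8.94 on the Tgif1 OE arrays and 9.23, 9.22, 9.29 and 9.13 on the Tgif2 OE arrays, with BirA control replicate 1 below the rest of its group. Kif2c read 10.69, 10.77, 10.73 and 10.76 on the BirA control arrays, 10.68, 10.61, 10.61 and 10.60 on the Tgif1 OE arrays and 10.77, 10.77, 10.77 and 10.77 on the Tgif2 OE arrays, with each Tgif1 OE array below all others of the arm.

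With the replicate number as a block the count went from 8 to 13, 4 higher and 9 lower, while the share of all genes called went from 19.7% to 29.8%. The genes added were Bub1, Mad2l1 and Incenp, lower on Tgif1 OE, and Nusap1 and Cdc20, higher, with adjusted p-values in that fit from 0.0151 (Bub1) to 0.0457 (Mad2l1). With each array pair as a random block limma called 0 of the 40 (9 at an unadjusted p under 0.05) and 3.28% of all genes, and with pairs averaged 0 (6 at an unadjusted p under 0.05) and 0.96%. The share of all genes at the unadjusted threshold was not counted. On leaving out single arrays the count was 4 without Tgif1 OE replicate 3, 4 without Tgif1 OE replicate 4, 5 without Tgif2 OE replicate 1 and 4 without Tgif2 OE replicate 2. Of all genes 14.9%, 14%, 14.6% and 14.7% were called in these fits, against 19.7% with all arrays. The Hmmr call was lost in each of these 4 fits, and that of Pttg1 with the pairs blocked (0.0538) or averaged (0.142). Between these groups 12 of the 40 genes did not overlap (30%), against 24.3% of all genes.

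The control groups of both arms were not alike in these genes. On shControl 6 of the 40 were higher than on BirA control and 3 lower, 22.5%, against 21.1% of all genes, 13.6% higher and 7.5% lower, and 29.1% of those at least as bright as the dimmest of the 40. The construct, the arm and any batch cannot be told apart in this comparison. The 5′ minus 3′ signal of Gapdh was -0.21 on shControl and -0.084 on BirA control, and that of Actb -0.64 and -0.51. Of the 13 fibroblast markers 3 were higher on shControl, Thy1 (1.94 ± 0.13), Pdgfrb (1.90 ± 0.27) and Pdgfra (0.35 ± 0.11), and Twist1 was lower (-1.03 ± 0.18). The part of these in the result was not tested. Pttg1 differed most, by 1.11 ± 0.072 (SE, adjusted p = 3.67e-07), or 2.16-fold. Its lowest shControl array (12.90) lay above every array of the overexpression arm, and its Tgif1 KD arrays, although down from their own control, were above the BirA control arrays.

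Cdc25c read 7.83 and 7.75 on the Tgif1 KD arrays and 8.09 and 8.09 on the shControl arrays. It read 7.65, 7.74, 7.61 and 7.70 on the BirA control arrays, 7.65, 7.57, 7.40 and 7.44 on the Tgif1 OE arrays and 7.60, 7.496, 7.32 and 7.41 on the Tgif2 OE arrays, so the shControl arrays were the highest of all (0.42 ± 0.085 SE, adjusted p = 0.00284). Ccnb2, cyclin B2, read 11.73 and 11.69 on the Tgif1 KD arrays and 11.67 and 11.68 on the shControl arrays. In the other arm it read 11.33, 11.31, 11.37 and 11.29 on the BirA control arrays, 11.32, 11.35, 11.33 and 11.32 on the Tgif1 OE arrays and 11.19, 11.18, 11.24 and 11.33 on the Tgif2 OE arrays, and the difference between controls was 0.35 ± 0.059 (SE, adjusted p = 0.000797). Both arrays of each knockdown group stood above the whole overexpression arm in Ccnb2, and it was called neither in the knockdown nor on Tgif1 OE. Ncapd2 (0.41 ± 0.095 SE, adjusted p = 0.00652), Cenpf (0.41 ± 0.083 SE, adjusted p = 0.0029) and Ncaph (0.24 ± 0.075 SE, adjusted p = 0.0368) were also higher on shControl. Cenpf read 11.23 and 11.12 on the Tgif1 KD arrays and 11.11 and 11.12 on the shControl arrays, and these groups overlapped.

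Bub3, the checkpoint protein that carries Bub1 and BubR1 to the kinetochore, read 11.56 and 11.49 on the Tgif1 KD arrays and 11.66 and 11.77 on the shControl arrays. In the other arm it read 11.95, 11.99, 11.95 and 11.93 on the BirA control arrays, 11.97, 11.93, 12.07 and 12.07 on the Tgif1 OE arrays and 12.04, 12.05, 12.18 and 12.18 on the Tgif2 OE arrays, so every array there lay above every knockdown-arm array. The difference between controls was -0.24 ± 0.069 (SE, adjusted p = 0.0242). Kif4 (-0.22 ± 0.075 SE, adjusted p = 0.0496) and Ccna2 (-0.19 ± 0.055 SE, adjusted p = 0.0212) were lower as well. The 3 lower calls and those of Ncapd2 and Ncaph were lost without shControl replicate 1 or without shControl replicate 2. Each of these fits leaves 1 shControl array, and the share of all genes called was lower in both. With array pairs as a random block 3 were called, Ccnb2, Cdc25c and Pttg1, which is 7.5% beside 7.35% of all genes. That fit also treated both shControl arrays as a single block. Between the control groups 20 of the 40 genes did not overlap (50%), against 43.8% of all genes.

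Other genes of mitosis were taken from a list of 102, of which 73 were measured. In the knockdown 12 of the 73 rose and 10 fell, on Tgif1 OE 4 rose and 13 fell, and on Tgif2 OE 16 were higher and 14 lower on the deposited values. The shares called were 30.1%, 23.3% and 41.1%, against 25.4%, 20.9% and 35.4% of all genes. Among genes at least as bright as the dimmest of the 40 they were 35.6%, 27.9% and 41.1%, and some of the 73 were dimmer. The medians were 0.017, -0.069 and 0.022, against -0.045, 0.015 and 0.12 over all genes. The largest changes in the knockdown were those of Top2b, the second type II topoisomerase (1.38 ± 0.19 SE, adjusted p = 9.18e-05), and Kif2a, a microtubule depolymerase (-1.33 ± 0.087 SE, adjusted p = 8.29e-08). Cenph (-0.91), Cenpq (0.61) and Rcc1 (-0.57) followed. On Tgif1 OE the largest were those of Cep55, an abscission protein (-0.47 ± 0.11 SE, adjusted p = 0.00475), Stag2, a cohesin subunit (0.47 ± 0.092 SE, adjusted p = 0.00189), Stmn1 (-0.40), Cdc27 (-0.37) and Zwilch (-0.35). On Tgif2 OE Top2b changed by -0.94 ± 0.14 (SE, adjusted p = 0.000109), Ska2 by -0.52 and Stag2 by 0.44. In their promoters CCAAT stood in 47.5% of the 61 with an entry and a CHR form in 24.6%, both lower shares than among the 40 genes.

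The known transcription factors of mitotic genes were counted in the same way. Of 17 measured regulators 2 rose and 5 fell in the knockdown (41.2%, against 25.4% of all genes). On Tgif1 OE 2 rose and 1 fell, where 20.9% of all genes were called. On Tgif2 OE 2 were higher and 1 lower, where 35.4% of all genes were called. Foxm1 changed by 0.13 ± 0.089, -0.044 ± 0.063 and 0.045 ± 0.063 in these comparisons, without a call. Mybl2, or B-Myb, was lower on Tgif1 OE (-0.73 ± 0.21 SE, adjusted p = 0.0256). The pocket protein genes Rb1 (1.25 ± 0.16 SE, adjusted p = 3.31e-05) and Rbl1 (0.59 ± 0.089 SE, adjusted p = 0.000178) rose in the knockdown, and E2f3 (-0.53 ± 0.13 SE, adjusted p = 0.0061), Nfyc, a subunit of NF-Y (-0.49 ± 0.086 SE, adjusted p = 0.000541), and E2f8 (-0.40 ± 0.092 SE, adjusted p = 0.00436) were among those that fell. On Tgif2 OE the pocket protein gene Rbl2, or p130, was lower (-0.86 ± 0.28 SE, adjusted p = 0.0269), and E2f5 (0.61) and Lin9, a subunit of the MuvB core (0.53), were higher. Rbl2 was dim, at 4.80 over all arrays. Its BirA control arrays ran from 4.40 to 5.84 and overlapped the Tgif2 OE arrays, at 3.87 to 4.51.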

How the data were processed

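The values are log2 intensities normalized by the authors before they were deposited, with RMA named per the submitters' processing notes and no version given. The table holds 22690 probe sets, of which 20380 carry 1 gene symbol, 691 several and 1555 none. For each of 12393 genes the single-symbol probe set with the highest mean over all arrays was used. Array values carry no read depth, so precision depends on how many arrays a group has.

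All 16 arrays were fitted by group with limma (version 3.58.1, R 4.3.3), two-sided, with Benjamini-Hochberg adjustment over all genes and a threshold of 0.05. The script was tested on simulated data with known changes. Knockdown was compared with shControl, each overexpression group with BirA control, and the knockdown change with the Tgif1 OE change by an interaction term. The members and lists were chosen with earlier results of these data known. Every called gene is named, as are core mitotic genes fixed by role, with array values for these and for up to 8 called genes with the largest change in each comparison. Of other lists, counts and up to 5 called genes with the largest change are given. Genes outside these rules are named to account for all members.

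Replicate numbers: in the overexpression arm, deviations from the group means correlated for all 12 same-number pairs of arrays, with r from 0.32 to 0.56. Arrays of the other number within replicates 1 and 2, or within 3 and 4, correlated about as well. Tgif1 OE replicate 1 gave 0.50 with Tgif2 OE replicate 2 and 0.43 with Tgif2 OE replicate 1. The own number was the best match in 2 of 12. These values show replicates 1 and 2 against 3 and 4, and do not show pairing by single number. The replicate block nevertheless took numbers to pair arrays, and the labels do not say what a number stands for. In the knockdown arm the lowest r was -0.0044, and numbers pair nothing.

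Alternatives were quantile normalization, a filter that left out the dimmest 0.333 of genes, the mean of a gene's probe sets, fits with only the groups compared, a replicate block, array pairs as a random block or averaged, replicates 1 and 2 or 3 and 4 of the overexpression arm alone, and leaving out each array. Promoters are RefSeq's (GRCm38.p6); 7 of the 40 genes had no entry.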

Additional observations from a re-analysis of the deposited data

Results flagged for a closer look

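In 8 of 120 groups of 4 arrays (1 gene in 1 group), 1 array stood apart from the other 3 beyond Dixon's 95% critical value, and chance marks about 5% of groups. On Tgif1 OE, Kif2c read 10.68 on replicate 1 against 10.60 to 10.61 on the others, and on replicate 2 Kif23 read 9.82 against at least 10.005 and Anln 11.28 against at least 11.39. On BirA control replicate 1, Nek2 read 8.86 against at least 9.01 and Bub1b 10.60 against at least 10.80. The low Bub1b array is the one that overlapped Tgif1 OE. Kif20a read 10.98 on BirA control replicate 3 against at least 11.04, and Pttg1 11.77 on BirA control replicate 4 against at least 11.81. Ect2 read 10.79 on Tgif2 OE replicate 4 against 11.12 to 11.18 on the other arrays.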

How the results depend on the processing

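Of the changes of called genes recomputed under each alternative, 1027 kept direction and call, 280 kept direction but not the call, and 1 turned: Bub3 on Tgif2 OE was -0.011 with the mean of its probe sets. In the knockdown 14 genes were called, with 24 when only replicates 1 and 2 of the overexpression arm entered the fit, 23 with only replicates 3 and 4, and 8 to 10 with 1 array left out, while all genes went from 25.4% called to 40.1% and 41.8% with replicates 1 and 2 or 3 and 4. On Tgif1 OE 9 were called, 5 with array pairs as a random block and 3 with pairs averaged (6 to 11 with 1 array left out). On Tgif2 OE 18 were called, 9 with the random block and 5 with pairs averaged (15 to 20). For Tgif1 OE minus Tgif2 OE, 8 became 0 under both, and 4 to 8 with 1 array left out. For shControl minus BirA control, 9 became 5 with only the groups compared, 3 with the random block, 16 and 19 with replicates 1 and 2 or 3 and 4 alone (all genes 36.5% and 32.9%, from 21.1%), 5 with pairs averaged, and 4 to 10. For the knockdown change minus the Tgif1 OE change, 16 became 10 under the random block and with pairs averaged (all genes 14.3% and 18.9%, from 27.6%), and 11 to 15. Of all genes, fewer were called in every fit with 1 array left out than in the main fit. The causes were not tested, except that averaging and leaving out arrays reduce the number of arrays.

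With the replicate block the counts were 19 in the knockdown, 12 on Tgif1 OE, 24 on Tgif2 OE, 13 for Tgif1 OE minus Tgif2 OE, 13 between the controls and 18 for the difference of changes, and of all genes 34.2%, 28.6%, 44.8%, 29.8%, 30.8% and 36.3%. For the random block and the averages, pairs lay within a group, so a difference between pairs that the groups shared was not removed. Its part in the lost calls was not tested. The random block was not run for the knockdown alone. In comparisons that include knockdown-arm arrays, it also treated both arrays of each such group as a single block. It used a shared correlation of 0.57 estimated over all arrays, so those counts depend partly on that pairing. Averaging kept the knockdown-arm arrays separate. Fold sizes of dim probe sets are limited by their signal over background.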

Other observations

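Neighbouring parts of the cell cycle machinery, from lists made with earlier results known, showed these values. Of 7 inhibitors of cyclin-dependent kinases, 5 rose in the knockdown: Cdkn2c (0.70 ± 0.15 SE, adjusted p = 0.00321), Cdkn2b (0.63 ± 0.21 SE, adjusted p = 0.0353), Cdkn1a, or p21 (0.59 ± 0.12 SE, adjusted p = 0.00235), Cdkn2d (0.53 ± 0.064 SE, adjusted p = 2.55e-05) and Cdkn2a (0.51 ± 0.14 SE, adjusted p = 0.0149). Cdkn1b and Cdkn1c, at 0.47 ± 0.21 and -0.35 ± 0.19, were not called. The share called was 71.4%, against 25.4% of all genes, and the median over the 7 was 0.53, against -0.045 over all genes. On Tgif1 OE 3 rose, Cdkn1c (1.18 ± 0.13 SE, adjusted p = 2.1e-05), Cdkn2b (0.45) and Cdkn1a (0.31), and 3 fell, Cdkn2a (-1.05 ± 0.099 SE, adjusted p = 4.5e-06), Cdkn1b (-0.70) and Cdkn2d (-0.53), 85.7% in all against 20.9% of all genes. On Tgif2 OE Cdkn1b, or p27, had the largest change (-1.12 ± 0.15 SE, adjusted p = 6.72e-05).

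Of 24 measured genes of DNA replication, 2 rose and 9 fell in the knockdown, 45.8% against 25.4% of all genes, with a median of -0.23 against -0.045. Ccne2, cyclin E2, rose (0.74 ± 0.16 SE, adjusted p = 0.0023), and the histone mRNA binding protein Slbp (-0.71 ± 0.091 SE, adjusted p = 4.36e-05), the origin loading factor Cdc6 (-0.60 ± 0.086 SE, adjusted p = 0.00011), the helicase subunit Mcm2 (-0.58 ± 0.083 SE, adjusted p = 0.000107) and cyclin E1, Ccne1 (-0.51 ± 0.084 SE, adjusted p = 0.00037), fell. On Tgif1 OE 1 rose, Ccne2 (0.37 ± 0.11 SE, adjusted p = 0.0276), and 6 fell, led by the polymerase alpha subunit Pola1 (-0.46 ± 0.062 SE, adjusted p = 0.000106), 29.2% in all against 20.9% of all genes. On Tgif2 OE 9 were higher and 3 lower on the deposited values, 50% against 35.4% of all genes, with a median of 0.11, which is -0.013 relative to the median of all genes. Among genes at least as bright as the dimmest of the 40, the shares called were 35.6% in the knockdown, 27.9% on Tgif1 OE and 41.1% on Tgif2 OE.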
